A study of Mus musculus with 6 samples.

Results

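The genes described here chiefly encode the enzymes that add methyl groups to the lysines of histones or take them off again. The genes also include some relatives of these enzymes, a pseudogene (Kdm4dl) and an antisense transcript (Kdm6bos). They were chosen by name: every gene of the deposited count table whose symbol begins with Kmt2, Kmt5, Kdm1 to Kdm8, Setd and a digit or b, Smyd, Nsd, Ezh1, Ezh2 or Suv39h, leaving out the sex-linked Kdm5c, Kdm5d and Kdm6a. That gave 47 of 55401 gene identifiers, and the rule itself uses names and no measured value. The samples were E15.5 mouse back skin, from 3 embryos with a conditional knockout of Prmt5 in the epidermis (Prmt5 cKO) and from 3 control embryos, 1 embryo to a library. The deposited table names the Cre line CRECT. The sources used here do not give the alleles of the controls or the strain, litter or sex of any embryo. Each sample held epidermis together with dermis, so Prmt5 was deleted in part of the cells measured.

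Lysine methylation marks a histone tail for reader proteins. Methylation of histone H3 lysine 4 and lysine 36 accompanies transcription, methylation of H3 lysine 9 and lysine 27 accompanies silencing, and methylation of H4 lysine 20 is tied to chromosome condensation and replication. Most writers carry a SET domain. The erasers are either amine oxidases (the Kdm1 pair) or JmjC oxygenases (the other Kdm genes). Prmt5, by contrast, methylates arginines of histones and of splicing proteins. In mouse epidermis Ezh1 and Ezh2 hold back differentiation genes, and Kmt5a (also called Setd8) is required to maintain the tissue.

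Counts summed to between 45371876 and 58309148 in the cKO libraries and between 35667634 and 66122667 in the controls. Levels are given as CPM, counts relative to a library size scaled by edgeR's TMM method. Prmt5 itself measured 27.1, 30.7 and 26.8 CPM in cKO replicates 1 to 3 and 69.7, 40.1 and 67.9 CPM in control replicates 1 to 3. The groups did not overlap, and control replicate 2 was lower than the other controls. The quasi-likelihood test of edgeR gave a log2 fold change of -1.07 ± 0.19 (SE, adjusted p = 0.00292). Without control replicate 2 it was -1.28 for Prmt5 on the log2 scale. An exact two-sided permutation test of 3 against 3 libraries gave p = 0.1, the smallest it can give. Of 19227 genes tested, 3139 were higher and 3767 were lower in the cKO at an adjusted p under 0.05 by edgeR, together 35.9% of all genes tested. Markers of cell types differed between the groups: the summed CPM of 15 pan-epithelial markers, all of which fell, was 3726 to 4159 in the cKO libraries and 9508 to 10506 in the controls. For 10 markers of differentiated epidermis, all of which fell, it was 311.5 to 404.6 in the cKO and 14656 to 20539 in controls. The muscle (12), dermal fibroblast (10) and endothelial (8) markers all rose, and 4 of 8 leukocyte markers rose. Summed muscle markers came to 7006 to 7132 CPM in the cKO and 2909 to 4154 CPM in controls, and dermal fibroblast markers to 59037 to 77710 CPM in the cKO and 38780 to 48543 CPM in controls. Endothelial markers summed to 808.4 to 891.5 CPM in the cKO and 627.3 to 714.4 CPM in controls, and leukocyte markers to 413.0 to 471.6 CPM in the cKO and 301.5 to 391.5 CPM in controls. Of 10 proliferation markers 2 fell and 8 did not pass, with sums of 1970 to 2052 CPM in the cKO and 2066 to 2194 CPM in controls. None of these markers was at 0 in all libraries. In whole skin, fewer cells of a type and less RNA per cell cannot be told apart, and the part of these marker differences in the results on single genes was not tested.

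**Figure D1:**
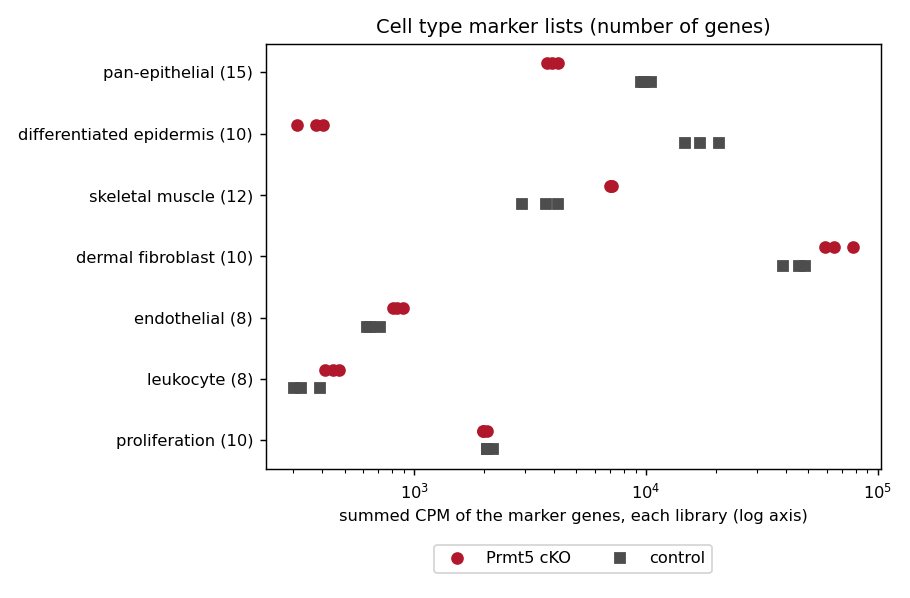
Summed CPM of 7 lists of cell type markers in each library, on a log axis, with Prmt5 cKO libraries as red circles and controls as grey squares (number of genes in brackets). The 3 cKO libraries lay below the controls for both epidermal lists and for the proliferation list, and above them for muscle, fibroblasts, endothelium and leukocytes.

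Among the histone lysine methylation genes a minority fell in cKO skin, to 50.2% of control at the lowest, 3 rose and the other 26 tested were not called. Of the 47 genes 45 passed the filter on low counts, which left out Kdm4d (8 to 12 counts per library) and Kdm4dl (0 to 6 counts). Of the 45 tested, 16 were lower and 3 were higher in the cKO at an adjusted p under 0.05 by edgeR, or 42.2%, against 35.9% of all genes tested. By direction, the share of all genes tested was 19.6% lower and 16.3% higher. The median SE was 0.067 for the 45 genes and 0.115 for all genes tested, so these shares were called at unlike precision. The median log2 fold change of the 45 genes was -0.07, against -0.008 for all genes tested. Their median absolute change was 0.17, against 0.28 for all genes tested, and the largest was that of Kmt5a at -0.99. Changes that were called and at least 0.5 in size on the log2 scale were found for 7 of the 45 (Kmt5a, Kdm1b, Kdm7a, Kdm5b, Setd6, Smyd3 and Smyd1), against 18.7% of all genes tested. The smallest change that was called was that of Kmt2e at -0.18. The groups did not overlap for 23 of the 45, against 49.9% of all genes tested. Erasers and writers differed in their counts: 8 of 14 tested demethylases fell and none rose (median -0.21), while among 30 tested methyltransferases and SET domain relatives 8 fell and 3 rose (median -0.04). The difference between these 2 shares was not tested. These counts hold for edgeR with TMM scaling. The demethylase gene Kdm6b was called higher with upper-quartile or RLE scaling and by DESeq2. With upper-quartile scaling the calls of the demethylase genes Kdm5a, Kdm2a and Kdm3a were lost. Those of Kmt5b, Kmt2c and Kmt2e among the methyltransferases and relatives were lost as well.

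**Figure D2:**
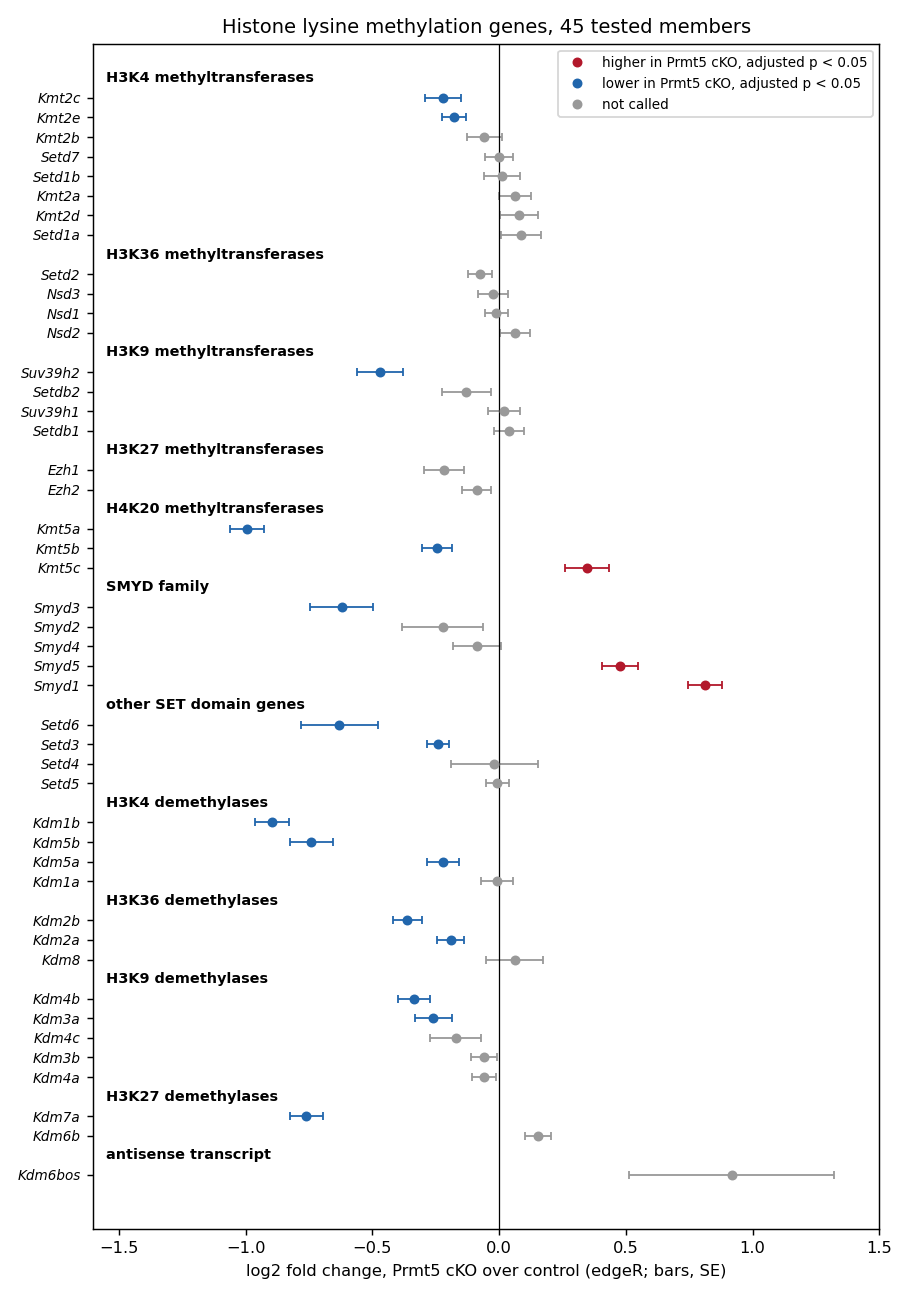
Log2 fold change of Prmt5 cKO over control for the 45 tested genes, grouped by substrate or family, with bars for the SE from edgeR. Blue points (16) were lower and red points (3) higher in the cKO at an adjusted p under 0.05, and grey points (26) were not called.

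The scaling of the libraries bears on the small changes. Under upper-quartile scaling the all-gene median shifted by 0.10 (log2), and 4514 genes were called higher and 2719 lower. Among the members 4 were then higher and 10 lower, and a median nearer to 0 than that shift changed sign. Measured from the median of all genes, each of the 45 log2 fold changes was within 0.0021 of its value under TMM. Other scaling shifts all genes by nearly the same amount, so this closeness was fixed in advance and is no test of the changes. As fitted, without that correction, the upper-quartile log2 fold changes of the smaller calls were -0.14 for Setd3, -0.16 for Kdm3a, -0.14 for Kmt5b, -0.12 for Kmt2c, -0.12 for Kdm5a, -0.09 for Kdm2a and -0.08 for Kmt2e. No called member changed sign in any of 14 other fits (other scalings, filters or tools, a replicate block, a sex term, each library left out), and 12 of the 19 kept their call in all of these: Kmt5a, Kdm1b, Kdm7a, Kdm5b, Setd6, Smyd3, Suv39h2, Kdm2b, Kdm4b, Setd3, Smyd5 and Smyd1.

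The H4 lysine 20 writers held the largest called fall, that of Kmt5a, and 1 rise. Kmt5a (chromosome 5, 124439930 to 124462308, plus strand, GRCm38), which places the first methyl group, measured 78.5, 88.3 and 87.4 CPM in the cKO libraries, against 169.4, 179.1 and 157.3 CPM in the controls. Every cKO library lay below every control, at a fitted 50.2% of the control level. For Kmt5a edgeR gave a log2 fold change of -0.99 ± 0.07 (SE, adjusted p = 1.35e-05). Kmt5b and Kmt5c add further methyl groups. Kmt5b was slightly lower, with 49.5, 51.0 and 45.7 CPM in the cKO and 60.5, 56.5 and 56.4 CPM in controls, a log2 fold change of -0.24 ± 0.06 (SE) and an adjusted p of 0.0139 by edgeR. Kmt5c was higher, with 35.2, 37.3 and 31.5 CPM in the cKO and 29.6, 26.5 and 25.5 CPM in controls, a log2 fold change of 0.35 ± 0.09 (SE) and an adjusted p of 0.0154 by edgeR. The groups did not overlap for either gene, but both calls depended on single libraries. Without cKO replicate 3 or control replicate 1 the adjusted p of Kmt5b by edgeR was 0.05001 to 0.0734, and with upper-quartile scaling it was 0.0853. Without cKO replicate 2 or control replicate 2 or 3 the adjusted p of Kmt5c by edgeR was 0.0527 to 0.0533. Summed per kilobase of exon, the 3 writers came to 27.9 ± 1.31 CPM per kilobase in the cKO and 42.5 ± 2.33 CPM per kilobase in controls (SD, n = 3 each).

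The promoters of the 2 members with the largest falls and the 2 with the largest rises among those called are shown to set the starts of these genes beside each other. Each window, from RefSeq on build GRCm38.p6, runs from 250 bases before the transcription start to 50 bases after it, on the gene's own strand, and capitals mark matches to the CCAAT box (CCAAT) and the GC box (GGGCGG) on either strand. For Kmt5a, which has 3 such windows, the one nearest the annotated gene start is shown. The Smyd1 window lies inside the annotated gene, well downstream of the gene's annotated start. The windows are chr5:124439680-124439979 (plus strand) for Kmt5a, chr13:47043249-47043548 (plus) for Kdm1b, chr6:71262232-71262531 (minus) for Smyd1 and chr6:85431726-85432025 (plus) for Smyd5.
Kmt5a: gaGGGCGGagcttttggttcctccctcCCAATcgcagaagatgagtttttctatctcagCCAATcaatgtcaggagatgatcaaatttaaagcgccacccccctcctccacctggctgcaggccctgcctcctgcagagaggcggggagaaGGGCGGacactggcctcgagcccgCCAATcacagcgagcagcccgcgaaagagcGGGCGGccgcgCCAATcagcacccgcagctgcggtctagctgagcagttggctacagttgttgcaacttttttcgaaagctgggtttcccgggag
Kdm1b: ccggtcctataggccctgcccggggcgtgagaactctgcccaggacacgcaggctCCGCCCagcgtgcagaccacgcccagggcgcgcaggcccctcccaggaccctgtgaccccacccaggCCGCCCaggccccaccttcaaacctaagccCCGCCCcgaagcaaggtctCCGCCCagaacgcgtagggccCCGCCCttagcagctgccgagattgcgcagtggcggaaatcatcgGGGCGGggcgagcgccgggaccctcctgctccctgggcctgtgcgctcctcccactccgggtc
Smyd1: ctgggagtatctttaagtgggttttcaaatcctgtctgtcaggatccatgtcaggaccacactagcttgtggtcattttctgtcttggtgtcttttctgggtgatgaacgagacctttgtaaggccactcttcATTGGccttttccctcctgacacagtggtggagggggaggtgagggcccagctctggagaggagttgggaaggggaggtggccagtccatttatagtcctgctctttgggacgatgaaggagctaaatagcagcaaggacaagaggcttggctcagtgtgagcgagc
Smyd5: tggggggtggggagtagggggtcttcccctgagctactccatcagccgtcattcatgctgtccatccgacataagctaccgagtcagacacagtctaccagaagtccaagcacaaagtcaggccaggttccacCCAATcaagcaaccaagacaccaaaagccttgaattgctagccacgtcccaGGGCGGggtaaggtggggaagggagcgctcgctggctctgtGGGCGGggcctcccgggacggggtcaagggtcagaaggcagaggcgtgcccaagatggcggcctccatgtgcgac
The Kmt5a window held 4 CCAAT boxes and 3 GC boxes, and that of Kdm1b 6 GC boxes and no CCAAT box. The Smyd1 window held 1 CCAAT box, no GC box and 3 CpG dinucleotides, against a median of 28 CpG over the 44 windows of the 33 members found in the table and 7 over all windows. It also held 1 match to TATAAA, on the reverse strand 28 bases before the start, and was the single member of the 33 with such a match. Over all 32851 windows, 37.4% held a CCAAT box, 35.7% a GC box and 13.6% a TATAAA match on either strand. Among the 33 members, 17 had a CCAAT box and 22 a GC box in at least 1 window. These matches describe the letters, and no binding was measured.

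Among the H3 lysine 4 erasers the amine oxidase gene Kdm1b and the JmjC gene Kdm5b fell. Kdm1b (chromosome 13, 47043499 to 47085279, plus strand), whose demethylase is known for its part in oocyte imprinting, measured 26.4, 26.2 and 25.5 CPM in the cKO and 45.02, 51.8 and 48.3 CPM in controls. The cKO libraries lay within 1 CPM of each other, well below every control. For Kdm1b edgeR gave a log2 fold change of -0.90 ± 0.07 (SE, adjusted p = 2.37e-05). Its paralog Kdm1a, the catalytic subunit of the CoREST repressor complex and the most expressed eraser per kilobase, measured 110.0, 109.3 and 119.7 CPM in the cKO and 107.9, 122.1 and 111.0 CPM in controls, and the groups overlapped. The Kdm1a log2 fold change was -0.01 ± 0.06 (SE). Kdm5b, which takes methyl groups off trimethylated H3 lysine 4, measured 134.1, 121.8 and 131.2 CPM in the cKO and 210.1, 242.5 and 194.0 CPM in controls, without overlap. For Kdm5b edgeR gave a log2 fold change of -0.74 ± 0.08 (SE, adjusted p = 0.000247). Kdm5a, of the same family, had 102.4, 103.4 and 106.6 CPM in the cKO and 119.4, 132.2 and 112.6 CPM in controls, a log2 fold change of -0.22 ± 0.06 (SE) and an adjusted p of 0.0262 by edgeR. The Kdm5a call was lost without any 1 of the 3 cKO libraries or control replicate 1 or 2 (adjusted p of 0.0536 to 0.0910 by edgeR). It was also lost with upper-quartile scaling (adjusted p of 0.187 by edgeR) and with a term for sex (0.0576). Its log2 fold change was -0.15 without control replicate 2. Per kilobase the 4 genes summed to 41.7 ± 1.38 CPM in the cKO and 52.3 ± 4.02 CPM in controls (SD, n = 3 each).

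The H3 lysine 4 writers changed little. Of 8 genes 2 fell and 6 were not called. Kmt2c, which with Kmt2d monomethylates lysine 4 at enhancers, measured 92.7, 80.0 and 78.7 CPM in the cKO and 93.8, 102.0 and 97.4 CPM in controls. The Kmt2c values gave a log2 fold change of -0.22 ± 0.07 (SE, adjusted p = 0.0393, edgeR). Kmt2e, whose SET domain lacks detectable histone methyltransferase activity, measured 108.7, 107.0 and 103.6 CPM in the cKO and 117.5, 125.9 and 118.0 CPM in controls, with a log2 fold change of -0.18 ± 0.05 (SE) and an adjusted p of 0.0208 by edgeR. Neither pair of groups overlapped, and both differences were small. The Kmt2c call was lost without cKO replicate 2 or 3 or any 1 of the controls (adjusted p of 0.0651 to 0.131 by edgeR). For Kmt2c the adjusted p by edgeR was also 0.210 with upper-quartile scaling, 0.0555 without the filter, 0.0690 with replicate number as a block and 0.0556 with a term for sex. The Kmt2e call was lost without cKO replicate 2 or 3 or control replicate 2 (adjusted p of 0.0558 to 0.0739 by edgeR), with upper-quartile scaling (0.248) and with a term for sex (0.0597). The most expressed of the group per kilobase, Kmt2b, had 123.8, 115.9 and 107.7 CPM in the cKO and 123.6, 126.2 and 111.7 CPM in controls, with overlapping ranges and a log2 fold change of -0.06 ± 0.07 (SE). The log2 fold changes of Kmt2a, Kmt2d, Setd1a, Setd1b and Setd7 were at most 0.09 in size, with SEs of 0.05 to 0.08. Of the exons of Setd1a, 51.8% are shared with the gene model Gm49388 on the same strand, so how reads were divided between them is uncertain.

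Of the H3 lysine 9 enzymes, 1 writer and 2 erasers fell. The writer gene Suv39h2 had 11.9, 13.0 and 12.8 CPM in the cKO and 16.7, 18.9 and 16.6 CPM in controls. All cKO libraries were lower, with a log2 fold change of -0.47 ± 0.09 (SE) and an adjusted p of 0.00429 by edgeR. Its X-linked paralog Suv39h1, which with Suv39h2 trimethylates lysine 9 in pericentric heterochromatin, had a log2 fold change of 0.02 ± 0.06 (SE). Setdb1, the writer that silences endogenous retroviruses and the most expressed of the 4 per kilobase, measured 105.9, 94.2 and 94.6 CPM in the cKO and 92.7, 97.8 and 96.4 CPM in controls, with overlap and a log2 fold change of 0.04 ± 0.06 (SE). Setdb2 was not called, its cKO and control values nearly touching (log2 fold change -0.13 ± 0.10, SE). Among the erasers, Kdm4b had 51.7, 56.5 and 53.05 CPM in the cKO and 69.6, 71.0 and 62.7 CPM in controls, with a log2 fold change of -0.34 ± 0.06 (SE) and an adjusted p of 0.00397 by edgeR. Kdm3a, an eraser induced by hypoxia, had 71.0, 62.5 and 71.9 CPM in the cKO and 77.5, 88.4 and 79.8 CPM in controls, with a log2 fold change of -0.26 ± 0.07 (SE) and an adjusted p of 0.0232 by edgeR. The Kdm3a call was lost without cKO replicate 2 or control replicate 2 (adjusted p of 0.0723 to 0.0789 by edgeR), with upper-quartile scaling (0.135), with replicate number as a block (0.0604) and with a term for sex (0.0575). Kdm4a, the most expressed of these erasers per kilobase, had 99.5, 95.8 and 92.3 CPM in the cKO and 99.6, 101.4 and 98.4 CPM in controls, with overlap and a log2 fold change of -0.06 ± 0.05 (SE). Kdm4c and Kdm3b were not called, at -0.17 ± 0.10 and -0.06 ± 0.05 (log2 fold change ± SE).

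For H3 lysine 27, the mark of Polycomb silencing, neither writer was called and 1 of 2 erasers fell. Ezh2, the catalytic subunit of Polycomb repressive complex 2 in dividing cells, measured 67.4, 69.0 and 71.7 CPM in the cKO and 69.6, 78.6 and 73.0 CPM in controls. Its ranges overlapped, with a log2 fold change of -0.09 ± 0.06 (SE) and an adjusted p of 0.269 by edgeR. The proliferation markers summed to 94.9% of their control level in the same libraries. Of the 10 markers 2 were called, both lower, and their median log2 fold change was -0.016. A link between Ezh2 and these markers was not tested. Ezh1, the paralog that prevails in resting cells, was lower in every cKO library, at 26.2, 25.2 and 24.4 CPM against 28.5, 27.7 and 32.0 CPM in controls, but missed the threshold (log2 fold change -0.22 ± 0.08, SE, adjusted p of 0.0593 by edgeR). Kdm7a (chromosome 6, 39136623 to 39206789, minus strand), which acts on dimethylated lysine 9 and lysine 27, measured 34.7, 32.6 and 36.005 CPM in the cKO and 54.6, 61.0 and 59.5 CPM in controls. The groups lay far apart, with a log2 fold change of -0.76 ± 0.07 (SE) and an adjusted p of 4.98e-05 by edgeR. Kdm6b, the eraser of trimethylated lysine 27, which promotes differentiation of human keratinocytes, had 102.6, 104.0 and 95.5 CPM in the cKO and 90.01, 87.8 and 94.0 CPM in controls, without overlap. Its log2 fold change was 0.15 ± 0.05 (SE), and its adjusted p of 0.0504 by edgeR was just outside the threshold. The adjusted p of Kdm6b by edgeR was 0.0337 with RLE scaling, 0.00437 with upper-quartile scaling, 0.0315 with a filter of 1 CPM in 3 libraries and 0.0358 without cKO replicate 3, and by DESeq2 it was 0.0320. The antisense transcript Kdm6bos shares 34.0% of its exon length with Kdm6b, and the counting's use of strand is not given in the sources used here, so reads in the shared stretch cannot be told apart from those of Kdm6b. It had 31 to 54 counts per library in the cKO and 11 to 41 in controls, and was not called (log2 fold change 0.92 ± 0.40, SE).

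Of the H3 lysine 36 writers, none of the 4 was called by edgeR, nor at an unadjusted p under 0.05. Nsd1, the most expressed of them per kilobase, measured 278.7, 277.8 and 283.4 CPM in the cKO and 279.9, 291.8 and 274.7 CPM in controls. The groups overlapped, with a log2 fold change of -0.01 ± 0.05 (SE). Nsd2, Nsd3 and Setd2, the last of which makes the trimethyl mark along transcribed genes, had log2 fold changes of 0.06 ± 0.06, -0.02 ± 0.06 and -0.07 ± 0.05 (SE). Among the erasers of this mark both Kdm2 genes fell. Kdm2b, which also brings a variant Polycomb complex to CpG islands, measured 48.6, 51.2 and 51.3 CPM in the cKO and 68.9, 61.7 and 63.7 CPM in controls. For Kdm2b edgeR gave a log2 fold change of -0.36 ± 0.06 (SE, adjusted p = 0.00163). The groups did not overlap. Kdm2a, the most expressed of the 3 erasers per kilobase, had 158.4, 156.5 and 154.9 CPM in the cKO and 178.4, 188.7 and 169.0 CPM in controls, with a log2 fold change of -0.19 ± 0.05 (SE) and an adjusted p of 0.0228 by edgeR. The Kdm2a call was lost without any 1 of the cKO libraries or control replicate 1 or 2 (adjusted p of 0.0559 to 0.0968 by edgeR), with upper-quartile scaling (0.227) and with a term for sex (0.0529). Kdm8 was not called (log2 fold change 0.06 ± 0.11, SE).

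The SMYD family, named for a SET domain split by a MYND zinc finger, held the 2 largest rises among called members. Smyd1 (chromosome 6, 71213940 to 71322233, minus strand), which is specific to striated muscle and needed for its myofibrils, measured 72.2, 71.6 and 78.6 CPM in the cKO and 44.9, 39.1 and 42.6 CPM in controls. All cKO libraries were above all controls, with a log2 fold change of 0.81 ± 0.07 (SE) and an adjusted p of 4.01e-05 by edgeR. The 12 skeletal muscle markers all rose in the same libraries, with a summed level 1.97 times that of controls. Per 1000 CPM of these markers, Smyd1 came to 10.5 ± 0.459 CPM in the cKO and 11.9 ± 1.36 CPM in controls (SD, n = 3 each), with p = 0.2 by an exact two-sided permutation test. With 3 against 3 libraries that test cannot give less than 0.1, so it cannot decide whether the ratio differed. The part of muscle content in the rise of Smyd1 was not tested. Smyd5, which methylates a ribosomal protein, measured 54.1, 50.2 and 45.6 CPM in the cKO and 35.1, 36.4 and 36.2 CPM in controls. Again the groups lay apart, with a log2 fold change of 0.48 ± 0.07 (SE) and an adjusted p of 0.00107 by edgeR. Smyd3, which methylates the kinase MAP3K2, fell: it had 8.96, 9.19 and 6.95 CPM in the cKO and 12.4, 13.3 and 13.0 CPM in controls, with a log2 fold change of -0.62 ± 0.12 (SE) and an adjusted p of 0.00523 by edgeR. Smyd2, the most expressed of the 5 per kilobase over all 6 libraries though below Smyd1 in the cKO, had 31.8, 38.7 and 46.4 CPM in the cKO and 55.0, 39.0 and 42.4 CPM in controls. The spread of Smyd2 within each group was wide (log2 fold change -0.22 ± 0.16, SE). With a term for sex edgeR gave Smyd2 -0.36 on the log2 scale (adjusted p = 0.0158). Counts of 3 Y-linked genes were present in cKO replicate 1 and control replicates 2 and 3 and at 0 in the other 3 libraries, so both groups held embryos of both sexes. Smyd4 was not called (log2 fold change -0.09 ± 0.10, SE).

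Of the remaining SET domain genes, Setd3 and Setd6 fell, and neither is chiefly a histone enzyme: Setd3 methylates a histidine of actin and Setd6 the NF-kappaB subunit RelA. Setd3 measured 76.4, 77.1 and 79.6 CPM in the cKO and 91.7, 93.5 and 90.4 CPM in controls. Its change was small and even, with a log2 fold change of -0.24 ± 0.04 (SE) and an adjusted p of 0.00266 by edgeR. Setd6 measured 6.21, 5.61 and 4.33 CPM in the cKO and 8.50, 7.79 and 8.74 CPM in controls. The fall was larger and less precise at this low level, with a log2 fold change of -0.63 ± 0.15 (SE) and an adjusted p of 0.0123 by edgeR. Setd5, the most expressed of the 4 per kilobase over all 6 libraries though below Setd3 in controls, had 263.4, 260.3 and 259.2 CPM in the cKO and 257.2, 272.1 and 257.3 CPM in controls, with overlap and a log2 fold change of -0.01 ± 0.05 (SE). Setd4 was not called (-0.02 ± 0.17, log2 fold change ± SE).

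**Figure D3:**
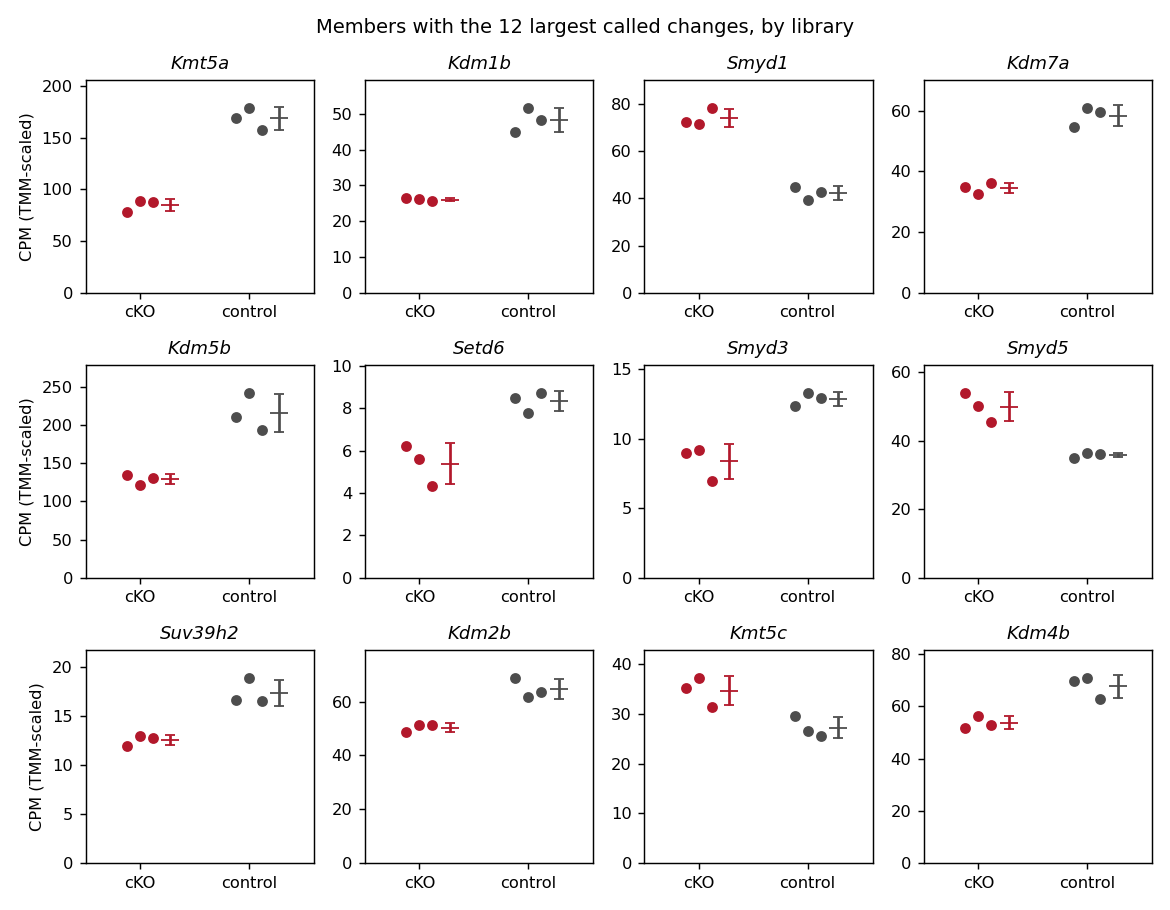
CPM in each library for the 12 members with the largest called changes, Prmt5 cKO in red and control in grey, on linear axes from 0, with the mean and SD of 3 libraries beside the points. The groups are apart in every panel, and Smyd1, Smyd5 and Kmt5c are the 3 that were higher in the cKO.

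Ratios between related members within a library, each taken per kilobase of exon, do not depend on how libraries were scaled. They are given for 12 pairs as a description, with no test, since the pairs were picked with the changes known and the choice largely fixed which ratios would lie apart. The groups did not overlap for 9 of the 12. Kmt5a over Kmt5c was 1.68, 1.79 and 2.09 in the cKO libraries, against 4.31, 5.09 and 4.64 in controls, a change of -1.34 on the log2 scale. Smyd5 over Smyd3 was 9.48, 8.57 and 10.3 in the cKO, against 4.46, 4.29 and 4.39 in controls, a change of 1.11. In both pairs the groups lay far apart, with relatively more Kmt5c and relatively more Smyd5 in the cKO. Kdm1b over Kdm1a averaged 0.218 ± 0.0144 in the cKO and 0.401 ± 0.00867 in controls (SD, n = 3 each). Kdm7a over Kdm6b averaged 0.237 ± 0.0221 in the cKO and 0.446 ± 0.0314 in controls. Suv39h2 over Suv39h1 averaged 0.265 ± 0.00933 in the cKO and 0.372 ± 0.00854 in controls. The 3 pairs whose groups overlapped were Ezh1 over Ezh2, Kdm2b over Kdm2a and Kdm3a over Kdm3b.

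**Figure D4:**
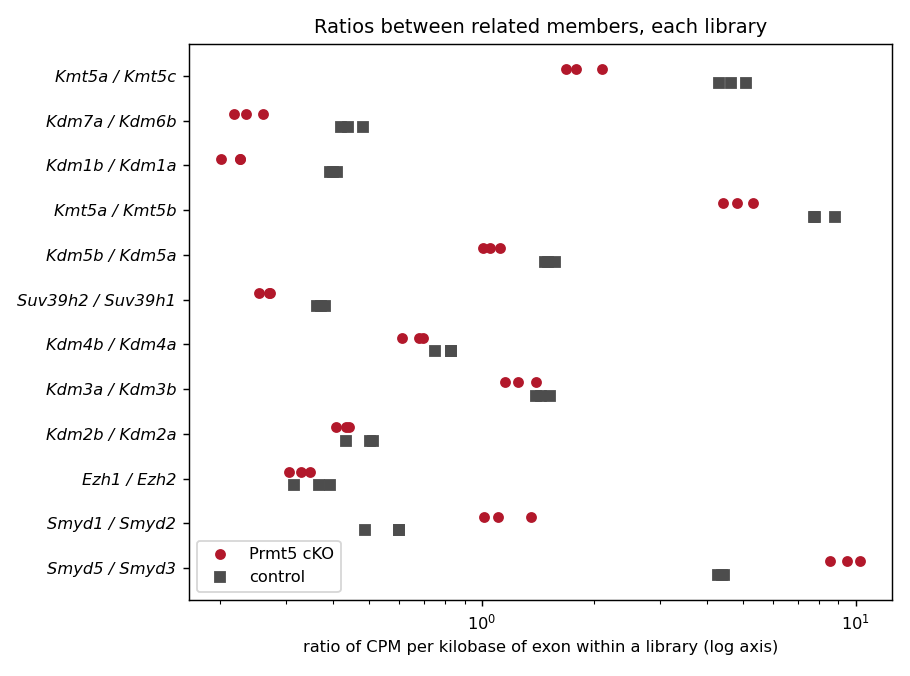
Ratio of 12 pairs of related members within each library, from CPM per kilobase of exon, on a log axis, with Prmt5 cKO as red circles and control as grey squares. Pairs are ordered by the change in log2 ratio, from -1.34 for Kmt5a over Kmt5c to 1.11 for Smyd5 over Smyd3.

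Levels between genes were compared as CPM per kilobase of exon (union of annotated exons). In controls Kmt5a was the highest of the tested members, at 31.8 CPM per kilobase, followed by Kdm1a at 22.0 and Kdm4a at 17.3. In the cKO Kdm1a was the highest at 21.8 CPM per kilobase, and Kmt5a, at 15.96, stood beside Kdm4a (16.6), Smyd1 (16.3) and Nsd1 (16.01), which differed by less than the spread of Smyd1 or Kmt5a. Smyd1 had 9.28 CPM per kilobase in controls. At the low end of the protein-coding members tested, Setd4 and Smyd3 stood at 0.751 and 0.911 CPM per kilobase in the cKO and at 0.760 and 1.40 in controls. The sum over the 14 tested demethylases was 125.7 ± 0.890 CPM per kilobase in the cKO and 146.1 ± 5.82 in controls, and over the 30 methyltransferases and relatives 257.6 ± 2.12 in the cKO and 273.4 ± 6.31 in controls (SD, n = 3 each). Neither pair of sums overlapped, and the exact two-sided permutation test gave p = 0.1 for each, the smallest possible. These sums rest on TMM scaling and were not taken under another. The methyltransferase sum in the cKO was 0.942 of that in controls. That gap is smaller than the all-gene shift under upper-quartile scaling, so a lower total level of these genes is not established.

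**Figure D5:**
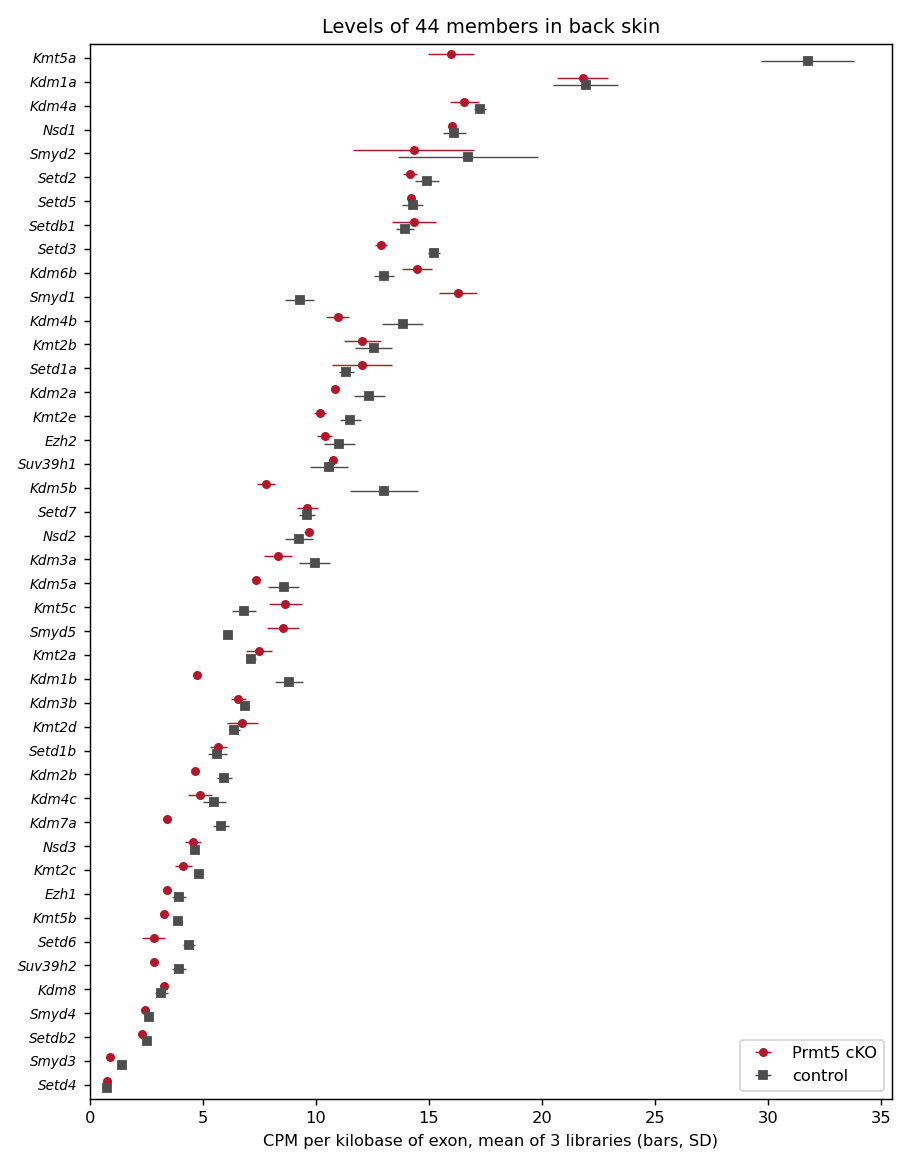
Mean level of the 44 tested protein-coding members in CPM per kilobase of exon, Prmt5 cKO as red circles and control as grey squares, with SD over 3 libraries. Kmt5a, Kdm1b, Kdm7a and Kdm5b are set to the left of their controls and Smyd1 to the right, while the points of most others lie together.

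Genes that work beside these enzymes were called at a share near that of all genes when both directions were pooled. With TMM scaling nearly all of these calls were falls. Of 63 partners and relatives in 6 lists, 19 fell and 1 rose by edgeR (12 and 6 with upper-quartile scaling), 31.7% in all, against 35.9% of all genes called in either direction. Split by direction, 19.6% of all genes tested were lower and 16.3% were higher with TMM scaling. Among 10 partners of Polycomb repressive complex 2, the core genes Eed and Suz12 were not called, the accessory genes Epop (-0.46 on the log2 scale), Jarid2 (-0.34), Aebp2 and Mtf2 fell, and Phf1 rose. Phf1 measured 12.9, 11.9 and 11.8 CPM in the cKO and 8.88, 7.44 and 8.71 CPM in controls, a log2 fold change of 0.55 ± 0.11 (SE). Among the subunits of Polycomb repressive complex 1, Cbx7, Cbx2 (-0.50), Phc2 and Cbx6 fell. Cbx7 and Cbx2 encode readers of the lysine 27 mark. Cbx7 had 2.54, 2.92 and 2.28 CPM in the cKO and 8.66, 6.67 and 7.09 CPM in controls. Its log2 fold change was -1.53 ± 0.16 (SE), with adjusted p = 0.000175 by edgeR, the fall of Cbx7 being larger than that of any member. Of 12 subunits of the H3 lysine 4 writing complexes 3 fell, all by small amounts: Ash2l (-0.30), Wdr82 (-0.18) and Rbbp5 (-0.17, log2 fold changes). Of 8 other lysine methyltransferases Setmar (-0.53) and Prdm2 (-0.25) fell. Of 12 other demethylases and partners of Kdm1a, 5 fell. Hr, the hairless gene, whose product demethylates H3 lysine 9 and is needed for hair regrowth in mice, had 26.0, 31.4 and 34.0 CPM in the cKO and 70.6, 45.04 and 63.8 CPM in controls. Riox2 (-0.66), Rcor1 (-0.55), Riox1 and Hdac1 were the others. Rcor1 encodes the CoREST scaffold that ties Kdm1a to nucleosomes, and it fell to 113.4, 108.1 and 107.5 CPM in the cKO libraries, against 159.3, 170.3 and 151.4 CPM in controls. The HP1 genes Cbx1, Cbx3 and Cbx5 and their partner Trim28 were not called by edgeR.

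Of the results the authors deposited, those of Sleuth give a second quantification. In the authors' deposited Sleuth table, 44 of the 45 tested members were listed, with 4 higher and 11 lower at a q under 0.05. That is 34.1% of them, against 35.3% of all genes in the table. Of these 15 genes, 14 were among the 19 called by edgeR, with the same sign, and Kdm6b was the other. The 5 called by edgeR and not by Sleuth in the authors' deposited table were Kdm2a, Kdm4b, Kdm5a, Kmt2e and Kmt5b. The widest gap was at Kdm4b, with a Sleuth effect of -0.07 on the log2 scale and a q of 0.738 in the authors' deposited table, against -0.34 from the counts. The authors' deposited DESeq2 table stands beside the counts fitted here and is not a second quantification. The authors' deposited DESeq2 table gives an adjusted p under 0.05 to 20 members (29.5% of all genes in it did): the 19 called by edgeR and Kdm6b.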

How the data were processed

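RNA of E15.5 back skin was sequenced from 3 Prmt5 cKO and 3 control embryos as stranded, paired-end mRNA libraries, per the labels' protocols. The submitters' processing notes name STAR, StringTie, DESeq2 and the build mm10, without versions or roles. How the counts were made is not given in the sources used here. Per the file headers, what the authors deposited were whole-number counts per gene, a DESeq2 table with log2 fold changes and p-values, and a Sleuth table with effects and q-values. The Sleuth effects the authors deposited were read as natural log values, since their median ratio to the deposited log2 fold changes was 0.670 over genes beyond 1 on the log2 scale, near the natural log of 2 (0.693). Counts summed to 35667634 to 66122667 per library. More genes held a count of 3 than of 2 in every library, so a count may stand for less than 1 read.

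From the counts, edgeR 4.0.16 (R 4.3.3) was run with filterByExpr (19227 genes), TMM scaling and the quasi-likelihood test of cKO against control, with Benjamini-Hochberg adjustment over all genes tested and a threshold of 0.05, after being tested on simulated counts. The SE is the log2 fold change divided by the square root of F. CPM uses TMM-scaled library sizes. Other settings tried were upper-quartile and RLE scaling, no filter, 1 CPM in 3 libraries, DESeq2 1.42.0, limma-voom (limma 3.58.1), a replicate block, each library left out, an adjusted p of 0.01, the authors' adjusted p and, added after the data were seen, a sex term. Exact permutation tests used SciPy 1.17.1. Coordinates and exon lengths are from GENCODE M21 (GRCm38), which held all 47 members and 98.1% of all identifiers. Named genes: values in each library for called members whose groups do not overlap and for the most expressed member of each substrate group per kilobase, and up to 3 called genes of each partner list. The members and lists were chosen with earlier results of these data known. Further partner genes named to complete a small count were chosen after their values were seen. The values of 1 partner gene are not reported here.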

Additional observations from a re-analysis of the deposited data

How the results depend on the processing

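With an adjusted p of 0.01 in place of 0.05, edgeR called 4398 genes and 11 members. The members' count was 14 to 20 over the other settings with all libraries and 13 to 17 with 1 library left out, and the count over all genes was 5705 to 5897 with 1 library left out. The partner lists had 14 to 17 calls with 1 library left out. Same-numbered cKO and control libraries had correlations of -0.0790, -0.0432 and -0.0617 in their deviations from group means, so the numbers did not pair them. The fit with replicate number as a block called 6098 genes, 17 members (all among the 19) and 18 partner genes, and gave Prmt5 a log2 fold change of -1.03. No called member changed sign. The signs that changed were of members that were not called, and the cause was not tested. With upper-quartile scaling they were Ezh2 (0.013), Smyd4 (0.014), Setd2 (0.027), Kdm3b (0.041), Kdm4a (0.043), Kmt2b (0.043), Nsd3 (0.077), Setd4 (0.082), Nsd1 (0.091), Kdm1a (0.093), Setd5 (0.095) and Setd7 (0.10). With a sex term they were Nsd3 (0.0065), Setd4 (0.027), Kdm1a (0.00065) and Setd5 (0.0035). With RLE scaling they were Nsd1 (0.0064), Kdm1a (0.0087), Setd5 (0.011) and Setd7 (0.017). With DESeq2 they were Nsd1 (0.0054), Kdm1a (0.0073), Setd5 (0.0097) and Setd7 (0.016). With a filter of 1 CPM in 3 libraries they were Kdm1a (0.00072), Setd5 (0.0029) and Setd7 (0.0095). With no filter it was Setd7 (0.0020). With 1 library left out the log2 fold changes that spanned 0 were Nsd3 -0.083 to 0.026, Setd4 -0.19 to 0.078, Nsd1 -0.023 to 0.023, Kdm1a -0.052 to 0.055, Setd5 -0.014 to 0.029, Setd7 -0.031 to 0.044, Setd1b -0.042 to 0.060, Suv39h1 -0.0042 to 0.10, Setdb1 -0.019 to 0.068, Kmt2d -0.0010 to 0.15 and Setd1a -0.0028 to 0.16. With 3 embryos a group, small differences were not detectable for members such as Smyd2 (SE 0.16), Setd4 (SE 0.17) and Kdm6bos (SE 0.40).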

Other observations

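Among the partner genes, 2 varied widely between libraries of the same group, Phc3 in the controls and Pagr1a in both groups. They are named after their values were seen. Phc3, a Polycomb subunit gene, measured 18.4, 17.3 and 15.9 CPM in the cKO libraries and 16.3, 15.7 and 53.3 CPM in the controls, and its log2 fold change of -0.72 (SE 0.43) was not called. Pagr1a, a subunit gene of the enhancer-marking complexes of Kmt2c and Kmt2d, measured 0.896, 4.19 and 1.07 CPM in the cKO and 0.766, 13.04 and 5.04 CPM in the controls, and was not called.

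Exons of several further members overlap gene models on the other strand. The shares of a member's exon length were 30.0% for Smyd2 (with Gm37422), 24.6% for Kdm3b (Gm26538) and 14.6% for Suv39h1 (Gm14820). Among called members they were 9.31% for Kmt2e (Srpk2), 9.19% for Kdm1b (Dek), 8.10% for Suv39h2 (Dclre1c), 6.28% for Kmt5b (Gm16066) and 5.77% for Kdm2b (Rnf34), and smaller for others.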
